A study of Mus musculus with 5 samples.

Results

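The genes described here encode the subunits of CCT, also called TRiC, the ring-shaped chaperonin of the mammalian cytosol. They were chosen by gene symbol: Tcp1, Cct2, Cct3, Cct4, Cct5, Cct6a, Cct6b, Cct7 and Cct8, which are 9 of the 56324 rows of the deposited gene table (for Cct4, which has a second row, the one with the higher mean). Levels were compared between 2 samples of spermatocytes, the germ cells in meiosis, and 3 samples of spermatids, their haploid descendants. Both groups came from 12-week-old C57Bl/6 males and were separated by sedimentation at unit gravity, so a fraction can hold several stages and other cells of like size. RNA was read as stranded, poly(A)-selected libraries. Whether different animals gave the samples is not in the labels. The p-values therefore reflect the scatter among these 5 libraries, part or all of which may be technical.

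CCT is a double ring in which each ring carries one copy of each kind of subunit. It takes up unfolded proteins from prefoldin, encloses them in its cavity and closes a lid built from the tips of its own subunits as ATP is hydrolysed. Actin and tubulin are its best known clients, together with many proteins built as WD40 beta-propellers. The subunits do not bind ATP alike: Tcp1, Cct2, Cct4 and Cct5 are known to bind it with high affinity, whereas Cct3, Cct6 and Cct8 bind it weakly. The Cct6 position can be filled by either of a pair of gene products, Cct6a in most tissues and Cct6b mainly in testis. Spermatids use large amounts of tubulin in the manchette and the axoneme, and actin around the acrosome.

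All values are read counts per gene after the authors' correction by library size factors (normalized counts). The members were deeply covered, with 6259 to 216950 recovered reads per gene and library, from libraries of 52784231 to 84361908 reads. Summed spermatid markers were at 763058 to 2137411 normalized counts in spermatids against 16529 to 21809 in spermatocytes (9 of 10 found, all 9 higher without overlap). Spermatocyte markers overlapped in sum, at 187244 to 207399 in spermatocytes and 158070 to 205338 in spermatids, with 6 of 9 lower in every spermatid library and 0 higher. Markers of Sertoli cells, the somatic support cells of the tubule, summed to 53101 and 69937 in spermatocytes and to 1608 to 2028 in spermatids (11 of 11 lower, none at 0), so they move with every difference given here. Leydig cell markers moved the same way (2738 to 3280 against 135 to 328, 6 of 7 found, all lower, none at 0), and their part and that of Sertoli cells in the results was not tested. Summed markers of spermatogonia (1416 to 1649 against 1854 to 2476) and of myoid, endothelial, macrophage and blood cells (412 to 494 against 1333 to 2043, Hba-a1 at 0 in some libraries) were the other way round. Both lists were mixed. Of 8 spermatogonia markers 5 were higher without overlap and 1 lower, and of the 9 found on the other list 5 were higher and 1 lower. Spermatid replicate 1 stood apart from the other two, with a mean chi-square per gene of 110.4 and 112.4 against 17.19 between replicates 2 and 3. Without it the same 5 and 2 members were called. In such bulk fractions, fewer cells of a type and less RNA per cell cannot be told apart.

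The CCT genes did not move as a unit. With the authors' size factors, 5 of the 9 members were higher in spermatids, 2 were lower and 2 did not pass the test (limma on log2 normalized count + 1, Benjamini-Hochberg adjusted p under 0.05). The background is large: 40.6% of the 28370 genes tested were higher and 36.5% were lower in the same fit. The 2 groups of libraries did not overlap for 8 of the 9 members, a share near the 85.8% of all genes tested. The median log2 fold change of the members was 0.31, against 0.07 for all genes tested. It was 0.215 for the 17295 genes with a mean of at least 100, a level that every member exceeded. The members split into 3 sets: Cct2 was higher by 2.38-fold, Cct6a and Cct8 were lower by 1.28-fold and 1.71-fold, and the remaining 6 had means 1.04-fold to 1.30-fold above those of spermatocytes, a direction that turns with equal library totals or quantile normalization.

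How the libraries are scaled decides the direction of those remaining 6. The summed normalized counts were 56855924 and 53899393 in spermatocytes and 80600836 to 96511989 in spermatids, so giving every library the same total moves the median log2 fold change of all genes tested from 0.07 to -0.57, and quantile normalization moves it to -0.39. With equal totals 1 member was higher (30.5% of genes tested were) and 8 were lower (49.4%). With quantile normalization 1 was higher (33.8%) and 6 were lower (46.5%). Cct2 was the member called higher, and Cct6a and Cct8 were called lower, under each of these scalings and under every other setting run. The log2 fold change of each gene minus the mean over the 9 members is free of any scaling by a factor per library. On that measure Cct2 stood 1.06 above the family mean and Cct8 stood at -0.97, Cct6a at -0.55, and the other 6 lay between -0.14 and 0.18.

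**Figure D1:**
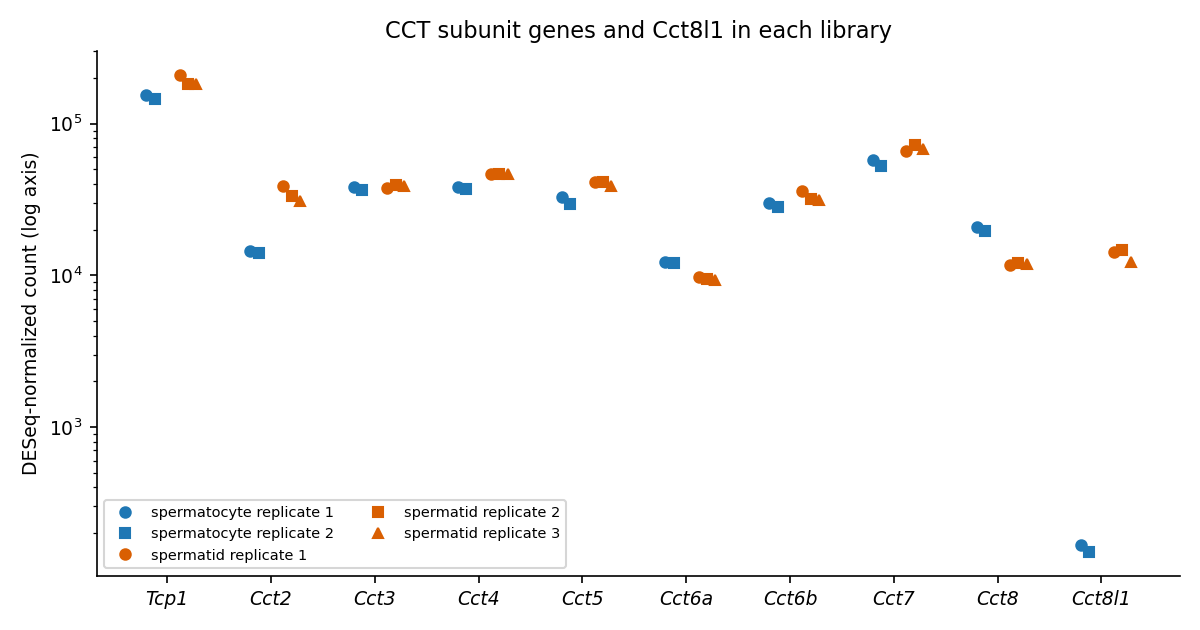
Normalized counts (log axis) of the 9 CCT genes in each library, and of Cct8l1, with colours for the groups (blue spermatocytes, orange spermatids) and marker shapes for the replicates. Cct2 is higher in every spermatid library and Cct6a and Cct8 are lower. Among the CCT genes the groups overlap for Cct3 alone, and with equal library totals the other 6 CCT genes turn to lower.

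Among the subunits with high ATP affinity, Cct2, the beta subunit (mm10 chr10:117050998-117063815), had 14505 and 14110.5 normalized counts in spermatocytes and 38715, 33294 and 30774 in spermatids. The lowest spermatid library was above both spermatocyte libraries, and spermatid replicate 1 was the highest. The means were 14308 ± 279 (SD, n = 2) and 34261 ± 4058 (SD, n = 3), a log2 fold change of 1.25 ± 0.11 (SE, 95% interval 0.98 to 1.53, limma adjusted p = 6.9e-05). With equal totals it was 0.61 and with quantile normalization 0.50, both past the threshold. No other row of the table overlaps Cct2.

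Tcp1, the alpha subunit and the gene after which the family was named, was the most abundant member (chr17:12916439-12925067). It had 153599 and 145470 normalized counts in spermatocytes and 210592, 183497 and 181845 in spermatids, with no overlap between groups. The means were 149534 ± 5748 (SD, n = 2) and 191978 ± 16141 (SD, n = 3), a log2 fold change of 0.36 ± 0.10 (SE, 95% interval 0.11 to 0.60, limma adjusted p = 0.016), against -0.29 with equal totals and -0.06 with quantile normalization. Its 3′ part shares 1109 bases with Acat3, a thiolase gene, whose row held 99.2 to 548 normalized counts, far below the level of Tcp1.

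Cct4, the delta subunit (chr11:22990593-23003337), was the steadiest member within spermatids. It had 38063 and 36990.1 normalized counts in spermatocytes and 46301, 46841.5 and 46683 in spermatids. The means were 37526.5 ± 759 (SD, n = 2) and 46609 ± 278 (SD, n = 3), and the log2 fold change was 0.31 ± 0.08 (SE, limma adjusted p = 0.0086), with -0.33 at equal totals. A second row named Cct4 lies just downstream (chr11:23003685-23004437) and held 18.6 to 33.5 normalized counts.

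Cct5, the epsilon subunit (chr15:31590805-31601804), had 32877.5 and 29499 normalized counts in spermatocytes and 41324, 41071 and 38907 in spermatids. Its groups did not overlap, and its spermatocyte libraries lay further apart than those of Cct4. The means were 31188 ± 2389 (SD, n = 2) and 40434 ± 1329 (SD, n = 3), a log2 fold change of 0.38 ± 0.09 (SE, limma adjusted p = 0.0071), with -0.27 at equal totals. Cct7, the eta subunit (chr6:85451505-85468477), had 57590.3 and 52479.9 normalized counts in spermatocytes and 66387, 72022 and 67655 in spermatids. Spermatid replicate 2 was its highest library, whereas for Tcp1, Cct2 and Cct5 it was replicate 1. The log2 fold change of Cct7 was 0.32 ± 0.09 (SE, limma adjusted p = 0.015), with -0.33 at equal totals, and without spermatid replicate 2 it no longer passed (limma adjusted p = 0.056).

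The calls on Tcp1, Cct4, Cct5 and Cct7 rest on few spermatocyte libraries. With either spermatocyte replicate left out, 1 library remains in that group, and most of these calls were lost. Without spermatocyte replicate 1 the log2 fold changes of these genes, in that order, were 0.40, 0.33, 0.45 and 0.39. Without spermatocyte replicate 2 they were 0.32, 0.29, 0.30 and 0.25. All of these calls were also lost when limma's variance prior had no mean-variance trend. In that fit 1 member was higher, as were 11118 of the 28370 genes tested. edgeR's quasi-likelihood test and DESeq2 on the recovered reads called the same 5 genes higher and the same 2 lower.

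Of the subunits with low ATP affinity, Cct8, the theta subunit (chr16:87483325-87495874), had 20899.7 and 19683 normalized counts in spermatocytes and 11625, 12002 and 11951 in spermatids. The spermatid libraries lay within a narrow range, well below both spermatocyte libraries. The means were 20291 ± 861 (SD, n = 2) and 11859 ± 205 (SD, n = 3), a log2 fold change of -0.77 ± 0.08 (SE, 95% interval -0.97 to -0.58, limma adjusted p = 0.00013). Its 3′ end shares 191 bases with Usp16, a deubiquitinase gene, which had 5021 and 4623 normalized counts in spermatocytes and 18468, 15081 and 13830 in spermatids. Usp16 thus moved the other way, with a log2 fold change of 1.70 (limma adjusted p = 3.7e-05). The strand setting of the authors' counting is not given in the sources used here, so reads in such shared stretches cannot be assigned.

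Cct3, the gamma subunit (chr3:88297122-88321766), had 38122 and 36548 normalized counts in spermatocytes and 37712, 39592 and 38994 in spermatids. It was the one member whose groups overlapped, and its log2 fold change of 0.05 ± 0.08 (SE, 95% interval -0.14 to 0.25) did not pass (limma adjusted p = 0.55). With equal totals its value was -0.59 and it was called lower.

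Cct2 and Cct8 thus changed order. The ratio of Cct2 to Cct8 normalized counts was 0.694 and 0.717 in spermatocytes and 3.33, 2.77 and 2.58 in spermatids. A ratio within a library does not depend on its scaling. The 250 bases upstream of the RefSeq start are shown for both genes, to set their start regions side by side, with the matches to the motifs searched in capitals (5′ to 3′ on the gene's strand, GRCm38.p6, Cct2 chr10:117063853-117064102 minus strand, Cct8 chr16:87495870-87496119 minus strand). A gene outside the list that is named after Cct8, Cct8l1 (chr5:25515817-25516066 plus strand), is shown for comparison because its levels are described next.
Cct2: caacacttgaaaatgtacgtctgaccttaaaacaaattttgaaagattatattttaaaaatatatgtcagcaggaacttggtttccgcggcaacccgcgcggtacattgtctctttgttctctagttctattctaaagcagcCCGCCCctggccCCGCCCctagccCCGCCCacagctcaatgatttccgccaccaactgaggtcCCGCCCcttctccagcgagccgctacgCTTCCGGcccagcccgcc
Cct8: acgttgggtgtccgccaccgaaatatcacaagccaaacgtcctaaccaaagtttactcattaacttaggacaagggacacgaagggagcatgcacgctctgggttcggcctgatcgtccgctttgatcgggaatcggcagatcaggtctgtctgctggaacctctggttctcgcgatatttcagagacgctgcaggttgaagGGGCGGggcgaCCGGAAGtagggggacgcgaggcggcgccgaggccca
Cct8l1: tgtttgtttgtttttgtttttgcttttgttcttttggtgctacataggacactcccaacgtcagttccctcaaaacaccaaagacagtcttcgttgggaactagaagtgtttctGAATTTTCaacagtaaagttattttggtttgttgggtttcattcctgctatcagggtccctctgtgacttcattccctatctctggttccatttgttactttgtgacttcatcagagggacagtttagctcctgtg
In the Cct2 window the capitals mark 4 GC boxes on the opposite strand, starting 108, 96, 84 and 45 bases upstream of the start site, and an ETS match at 18. The Cct8 window holds 1 GC box at 48 and an ETS match at 37, and it also contains the start and first bases of B130034C11Rik, a transcript on the opposite strand that begins 126 bases upstream. The Cct8l1 window holds neither, and its capitals mark a heat shock element core at 136. It has 2 CpG dinucleotides, whereas Cct2 has 16 and Cct8 has 22.

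RefSeq start windows were matched for 8 of the 9 members, all but Cct4. The motifs searched on both strands were CCAAT, the GC box GGGCGG, the ETS core CCGGAAG, the cyclic AMP elements TGACGTCA and TGACGTAA, the heat shock element core GAANNTTC and the MYB core CNGTTA, none of which overlapped another in the windows shown. The GC box was found in 7 of 8 member windows, against 32.7% of 32851 promoter windows of the same length. CCAAT was found in 4 of 8 (33.8% of all), the ETS core in 3 of 8 (6.9%) and CNGTTA in 2 of 8 (19.8%). No member window held TGACGTCA (1.5% of all), TGACGTAA (0.4%) or GAANNTTC (6.7%). The member windows held 14 to 24 CpG dinucleotides, with a median of 17.5 against 6 for all promoters. These are matches of letters and were not tested as binding sites.

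Cct8l1 (chr5:25516067-25518026), singled out here after its values were seen, codes for a chaperonin-like protein whose nearest member in sequence is Cct8. It had 167 and 150.2 normalized counts in spermatocytes and 14188, 14782 and 12244 in spermatids, an 85.9-fold difference. The means were 159 ± 11.9 (SD, n = 2) and 13738 ± 1328 (SD, n = 3), a log2 fold change of 6.43 ± 0.12 (SE, limma adjusted p = 3.7e-07), which passed under every setting run, at 5.78 to 6.51. Per kilobase of transcript, its level came to 0.975% and 0.932% of that of Cct8 in spermatocytes and to 149.0%, 150.4% and 125.1% in spermatids. Its spermatocyte level was 1.15% of its spermatid mean, and summed spermatid markers stood at 1.56% of theirs. Without spermatid replicate 1, where these markers were highest, the values were 1.17% and 2.46%. The proteins read from the open reading frames of Cct8 and Cct8l1 were identical at 32.3% of aligned residues, against 23.4% to 27.5% for Cct8l1 and the other 8 members, and the transcripts of the pair shared no run longer than 12 bases.

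The Cct6 position has a pair of genes. Cct6a (chr5:129787356-129846443), the form known from most tissues, had 12243 and 12037 normalized counts in spermatocytes and 9704, 9435 and 9297 in spermatids. Every spermatid library was below both spermatocyte libraries, and the means were 12140.0 ± 145 (SD, n = 2) and 9479 ± 207 (SD, n = 3). The log2 fold change was -0.36 ± 0.08 (SE, 95% interval -0.55 to -0.17, limma adjusted p = 0.0052). An unnamed 534-base row lies inside Cct6a, with 1117 and 1146 normalized counts in spermatocytes and 1414, 730 and 683 in spermatids. Reads in that stretch cannot be assigned, and their part in the fall of Cct6a was not tested.

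Cct6b (chr11:82719250-82764322), the form known mainly from testis, was the more abundant of the pair in every library. It had 30070.5 and 28002 normalized counts in spermatocytes and 35988, 31973 and 31368 in spermatids. The means were 29036 ± 1463 (SD, n = 2) and 33109.7 ± 2511 (SD, n = 3). Its groups did not overlap, but its log2 fold change of 0.19 ± 0.10 (SE, 95% interval -0.04 to 0.42) did not pass the test (limma adjusted p = 0.12). It passed as higher with TMM factors (limma adjusted p = 0.042) and as lower with equal totals, where its value was -0.46.

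The ratio of Cct6b to Cct6a, which no scaling by library alters, was 2.46 and 2.33 in spermatocytes and 3.71, 3.39 and 3.37 in spermatids. All 3 spermatid libraries were above both spermatocyte libraries. The log2 ratio was 1.26 ± 0.06 (SD, n = 2) and 1.80 ± 0.08 (SD, n = 3), a difference of 0.54 or 1.46-fold, with an exact two-sided permutation p = 0.2, the smallest that 2 against 3 samples allow. Per kilobase of transcript, Cct6b made up 77.1% and 76.2% of the pair in spermatocytes and 83.6%, 82.3% and 82.2% in spermatids. GENCODE gives no coding model for Cct6a and marks its 2454-base transcript for an error in the reference sequence. With the 1599-base transcript that is the open reading frame alone in its place, the shares were 68.7% and 67.5% and then 76.8%, 75.2% and 75.1%. The pair is close in sequence, with 75.9% identical residues and 74.2% identical coding bases, against 23.9% to 38.1% identical residues for the other 35 pairs of members. The longest run of bases that the Cct6a and Cct6b transcripts share is 20, so a longer read within one of them differs from the other in at least 1 base. How the authors treated reads that match several places is not given in the sources used here.

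**Figure D2:**
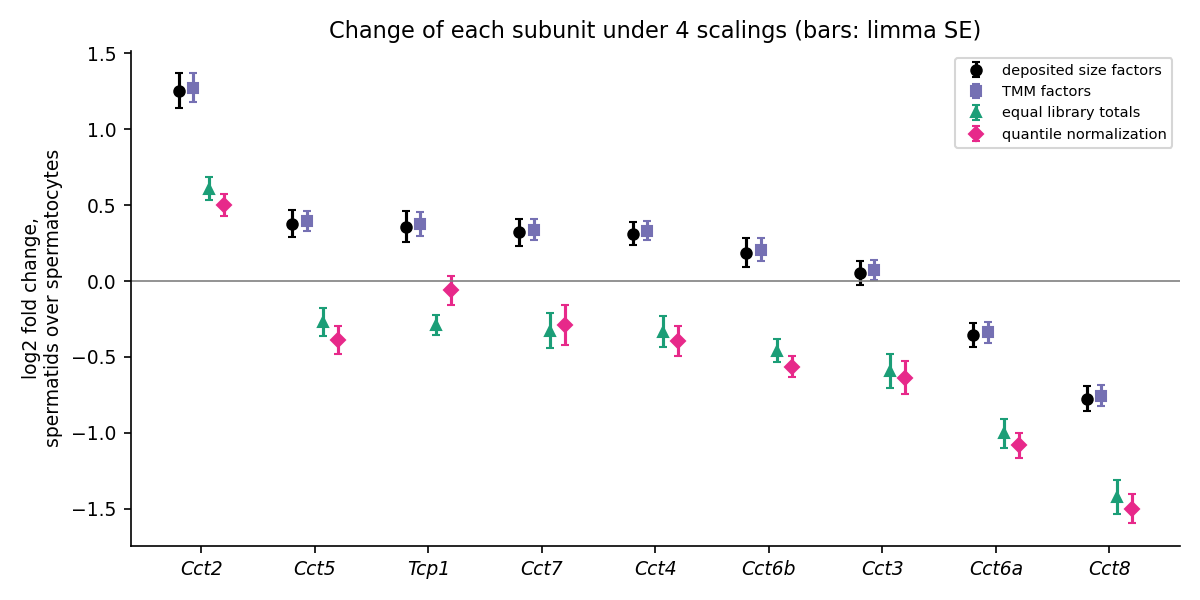
Log2 fold change (spermatids over spermatocytes) of each CCT gene under the authors' size factors, TMM factors, equal library totals and quantile normalization, with the limma standard error as error bar. Cct2 stays above 0 and Cct6a and Cct8 stay below 0 under all 4, while the other 6 genes lie above 0 with the first pair of scalings and below 0 with the last pair.

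Levels were set beside each other per kilobase of transcript, with the normalized count of each gene divided by the length of its GENCODE transcript. In spermatocytes the order of mean levels was Tcp1 (61134 normalized counts per kilobase), Cct7 (22546), Cct3 (18885), Cct5 (16831), Cct6b (16249), Cct4 (15107), Cct8 (8476), Cct2 (7304) and Cct6a (4947). Cct5 and Cct6b overlapped in their libraries, and the other neighbours in this order did not. In spermatids it was Tcp1 (78487), Cct7 (28139), Cct5 (21821), Cct3 (19608), Cct4 (18764), Cct6b (18528), Cct2 (17489), Cct8 (4954) and Cct6a (3863), with overlap between Cct4 and Cct6b and between Cct6b and Cct2. Tcp1 was 2.71 times the next member in spermatocytes and 2.79 times in spermatids. It was 12.4 times Cct6a in spermatocytes and 20.3 times in spermatids. The last place of Cct6a rests on its transcript length. With the 1599-base transcript, an alternative added after the data were seen, Cct6a had 7592 normalized counts per kilobase in spermatocytes, above Cct2, and 5928 in spermatids, above Cct8, and Tcp1 was 8.05 and 13.2 times Cct6a. That length is the open reading frame alone, whereas the other members were divided by longer transcripts, which sets Cct6a higher against them. Protein was not measured.

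The largest shifts in the share of the summed level per kilobase of all 9 members were those of Cct2 and Cct8. Cct2 went from 4.19% and 4.33% in spermatocytes to 8.90%, 8.12% and 7.72% in spermatids. Cct8 went from 4.94% in both spermatocyte libraries to 2.19% to 2.45% in the 3 spermatid libraries. Tcp1 held a mean of 35.7% and then 37.0%, and Cct7 held 13.1% and then 13.3%. The mean shares of Cct4 (8.81% and 8.88%) and Cct5 (9.81% and 10.3%) also lay close together, with ranges that overlapped between groups for Cct4 and Cct7 alone among the 9, whereas those of Cct6b (9.47% and 8.75%) and Cct6a (2.89% and 1.83%) were smaller in spermatids. The share of Cct3 was 10.9% and 11.1% in spermatocytes and 8.59% to 9.69% in spermatids. In spermatids the level of Cct2 was close to those of Cct6b and Cct4, and Cct8 and Cct6a were the 2 lowest members with either length of Cct6a. These shares use the 2454-base Cct6a transcript.

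**Figure D3:**
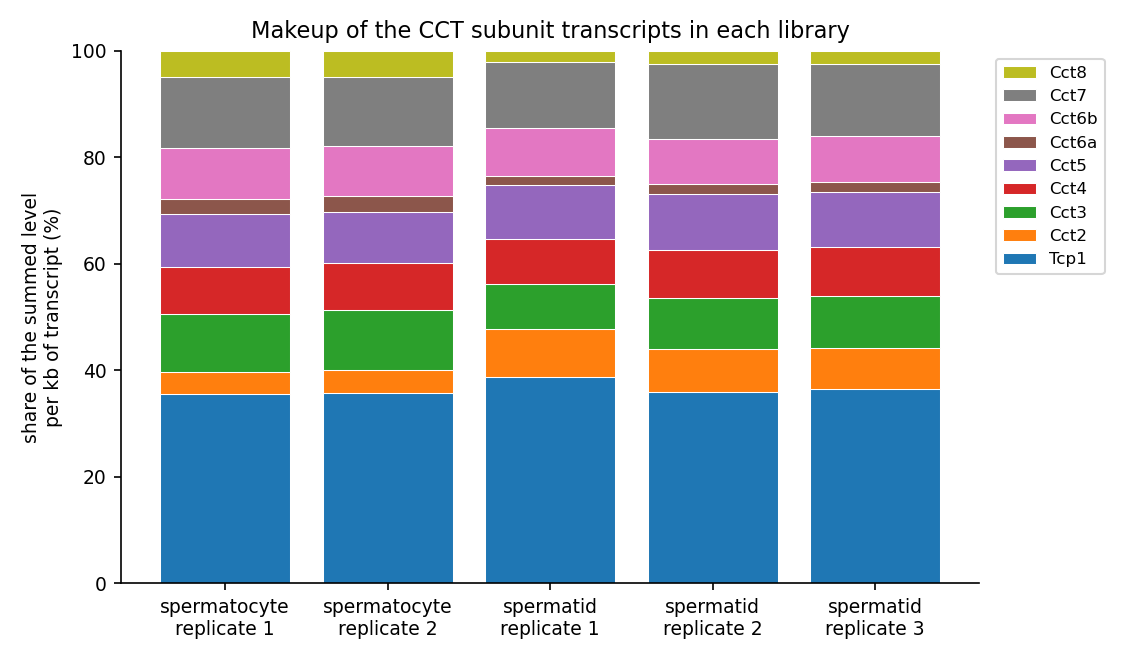
Share of each CCT gene in the summed level per kilobase of the 9 genes, in percent, for each library. Cct2 takes 4.19% and 4.33% in spermatocytes and 7.72% to 8.90% in spermatids, Cct8 takes 4.94% and then 2.19% to 2.45%, and Tcp1 takes over 35% in every library.

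Several CCT genes lie head to head with another gene. A start of an opposite-strand gene lay within 1000 bases of the start of 7 of the 9 members in GENCODE, against 17.0% of 21951 coding genes. Cct6a, among the 7, is not typed as coding there and so lies outside that background. The closest was Zfp830, 24 bases upstream of Cct6b. Zfp830 encodes a zinc finger protein and had means of 2867 normalized counts in spermatocytes and 4663 in spermatids (log2 fold change 0.70, limma adjusted p = 0.0005). Fam173b, 48 bases upstream of Cct5, had 242 and 449.7 (0.87, limma adjusted p = 0.0091). Mrpl18, a mitochondrial ribosomal protein gene, had 2119 and 3807 (0.85, limma adjusted p = 0.00026). Its start lies 644 bases inside Tcp1 as GENCODE draws that gene. In the deposited table the Mrpl18 row ends at 12916144, upstream of the Tcp1 row, which starts at 12916439. The neighbours of Cct6a, Cct7 and Cct8, namely Psph, Pradc1 and B130034C11Rik, had log2 fold changes of -0.36, -0.19 and -0.88 and did not pass (limma adjusted p = 0.077, 0.2 and 0.06). The starts of Psph and Pradc1 lie 451 and 456 bases inside Cct6a and Cct7. Tsacc, 117 bases upstream of Cct3, was not matched in the table.

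The cofactors that hand proteins to CCT or work beside it, listed here together with relatives of the chaperonin, moved in both directions. Of 24 tested genes on 5 lists, 11 were higher and 10 lower in spermatids, with a median log2 fold change of 0.13, against 0.07 for all genes tested and backgrounds of 40.6% and 36.5%. With equal library totals 7 were higher and 14 lower. Prefoldin, the hexamer that delivers actin and tubulin chains, had 2 of 5 tested subunits higher and 2 lower. Vbp1 rose from a mean of 173 to 585 normalized counts without overlap (log2 fold change 1.78, limma adjusted p = 0.00019). Pfdn2 fell from 1875 ± 232 (SD, n = 2) to 429 ± 67.1 (SD, n = 3) normalized counts and Pfdn4 from 1216 ± 14.3 to 243 ± 22.4 (log2 fold changes -2.13 and -2.33, limma adjusted p = 3.6e-05 and 1.1e-05). Pfdn1 had 7504 and 6689 normalized counts in spermatocytes and 7979.9, 7750.4 and 6807 in spermatids, with overlap. Pfdn5 had means of 7758 and 10276 (log2 fold change 0.40, limma adjusted p = 0.02), a direction that turned to -0.25 with equal totals. Its call was also lost without the variance trend (limma adjusted p = 0.079) and without spermatocyte replicate 1 (0.088), its fellow replicate 2 (0.13) or spermatid replicate 2 (0.053). The prefoldin subunit listed under its older symbol H2-Ke2 had 3698 and 3301 normalized counts in spermatocytes and 2817, 3518 and 3256 in spermatids, and did not pass (limma adjusted p = 0.35).

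The prefoldin-like complex had 2 of 3 tested genes higher and 1 lower. Uri1, its scaffold subunit, had 493 and 384 normalized counts in spermatocytes and 14890, 15640 and 12582 in spermatids. That is a 32.8-fold difference (log2 fold change 5.04 ± 0.15 SE, limma adjusted p = 6e-07), and the groups were far apart. Uxt went from a mean of 15.9 to 58.0 (log2 fold change 1.79) and Pdrg1 from 881 to 467 (-0.92). Of the phosducin-like proteins, which bind CCT and regulate or assist its folding, 2 of 4 were higher and 2 lower. Pdcl2, a form known mainly from male germ cells, had 32099.8 and 28887.5 normalized counts in spermatocytes and 53591, 43440 and 41255 in spermatids (log2 fold change 0.59, limma adjusted p = 0.0054), which turned to -0.06 with equal totals and missed the threshold without spermatocyte replicate 2 (limma adjusted p = 0.075). Txndc9 rose from a mean of 1722 to 3614 (log2 fold change 1.07) and Pdcl fell from 815 to 274 (-1.58).

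Among chaperonin relatives 2 of 5 were higher and 2 lower. These included Hspd1 and Hspe1, the chaperonin pair of mitochondria, which are not cofactors of CCT. Hspe1 was among the higher genes, with means of 157 and 303 normalized counts (log2 fold change 0.93, limma adjusted p = 0.012). Hspd1 did not pass (limma adjusted p = 0.21). Bbs12, one of the CCT-like proteins that assemble the BBSome of cilia, had 86.2 and 83.1 normalized counts in spermatocytes and 955, 1142 and 1235 in spermatids (log2 fold change 3.69, limma adjusted p = 2.5e-06). Its partners in that complex were lower: Bbs10 went from a mean of 3375 to 1819 (-0.90) and Mkks from 686 to 265 (-1.37). The tubulin folding cofactors, which take tubulin from CCT and build the heterodimer, had 3 of 7 higher and 3 lower. Tbcc had means of 3394 and 7600 (log2 fold change 1.14) and Arl2, the small GTPase that works with them, 429 and 2841 (2.72). Tbca had means of 4664 and 3633 (-0.36) and Tbcb 4236 and 2764 (-0.62), all 4 past the threshold of limma. Tbcc missed it with equal totals (0.49) and with quantile normalization (0.51). Tbca missed it without the variance trend (limma adjusted p = 0.072) and without spermatocyte replicate 1 (0.1), its fellow replicate 2 (0.066) or spermatid replicate 3 (0.053).

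Client genes spread over a wider range than the CCT genes themselves, as the plot of cofactors and clients shows. Of 34 tested genes on 3 client lists 18 were higher and 11 lower in spermatids, with a median log2 fold change of 0.69, against 40.6% and 36.5% of all genes tested. With equal totals 13 were higher and 14 lower, where 30.5% and 49.4% of all genes were. Tubulin genes went far in both directions, with 8 of 14 higher, 6 lower and a median of 1.33. Tubg2, counted among the higher tubulin and client genes, had only 2.15 and 4.69 normalized counts in spermatocytes. It passed the filter on the mean through its spermatid levels alone (119, 39.6 and 38.8). Tuba8 had 218 and 181 normalized counts in spermatocytes and 18427, 12427 and 11018 in spermatids (log2 fold change 6.09, limma adjusted p = 1.2e-06). Tubb4b, an axonemal beta-tubulin, had means of 98139 and 156625 (0.67, but 0.03 with equal totals and 0.12 with quantile normalization, neither past the threshold). Tuba3a and Tuba3b, near-identical copies between which reads may be split, had means of 177160.0 and 122420 and of 185518 and 111158 (-0.53 and -0.74).

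Of the actin genes 3 of 5 tested were higher and 1 was lower. Acta2, among the higher ones, had means of 82.7 and 291 normalized counts (log2 fold change 1.79). It is also on the list of myoid markers, and whether its reads came from germ cells was not tested. Actb had means of 8380 and 34995 normalized counts (log2 fold change 2.04) and Actg1 18971 and 14969 (-0.34, limma adjusted p = 0.026). The call on Actg1 was lost without the variance trend (limma adjusted p = 0.1) and without spermatocyte replicate 1 (-0.23, limma adjusted p = 0.2), spermatid replicate 2 (0.079) or spermatid replicate 3 (0.059). Actg2, known as a smooth muscle form, had 327 and 296 normalized counts in spermatocytes and 34120, 23012 and 20307.5 in spermatids (6.33, limma adjusted p = 9.2e-07). Beta-propeller and other clients had 7 of 15 tested higher and 4 lower. Cdc20 and Fzr1, both activators of the anaphase-promoting complex, went apart: Cdc20 had means of 18268 and 9582 (-0.93, limma adjusted p = 7.3e-05) and Fzr1 9438 and 20705 (1.13, limma adjusted p = 6.4e-05). Ppp2r2d, a regulatory subunit of phosphatase PP2A, had means of 4304 and 19751 (2.19). Its relative Ppp2r2b, whose row overlaps 12 others, had 130 and 121 normalized counts in spermatocytes and 11146 in spermatid replicate 1 against 2792 and 3168 in replicates 2 and 3 (5.19, limma adjusted p = 0.00016).

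**Figure D4:**
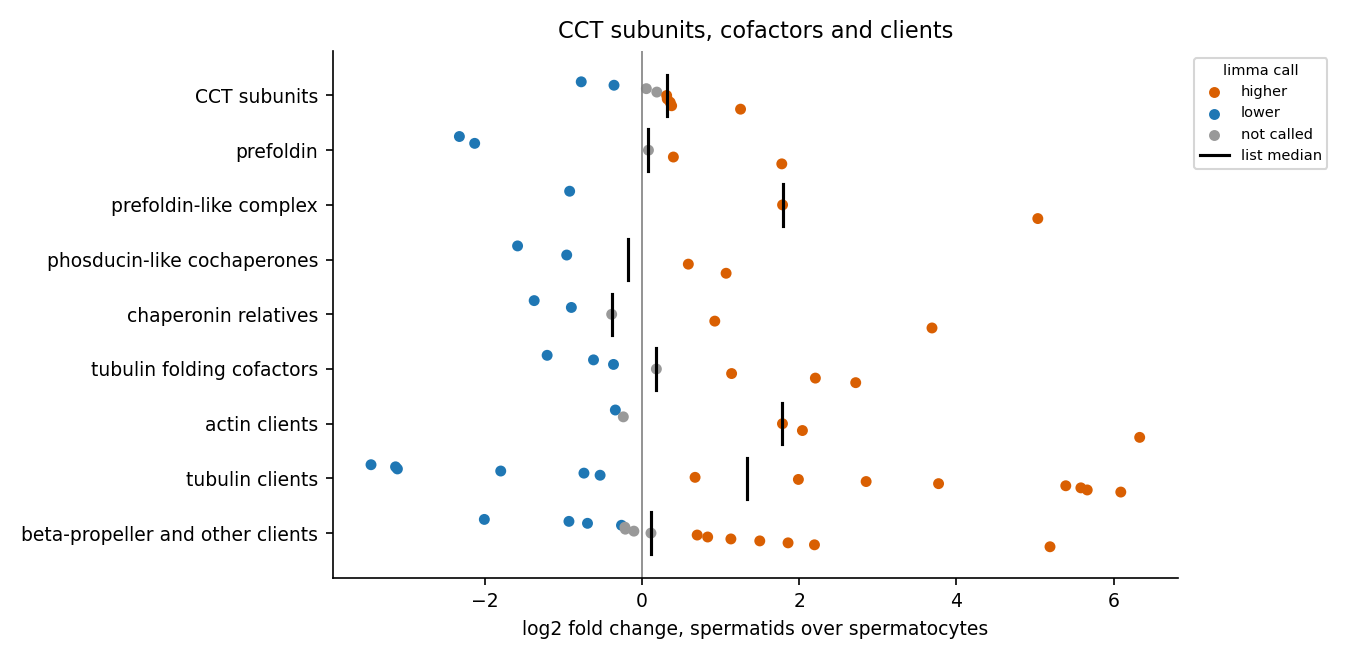
Log2 fold change (spermatids over spermatocytes, authors' size factors) of the CCT genes and of the cofactor and client lists, 1 point per tested gene, coloured by limma call, with a line at the median of each list. The CCT genes lie between -0.77 and 1.25, a narrower span than that of the tubulin genes, whose median is 1.33; equal library totals would shift all points to lower values.

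Genes with a like pattern were sought by the distance between log2 profiles over the 5 libraries, each centred on its own mean, among 15382 tested genes with a plain symbol. Nearest to Cct6b were Arpc2, a subunit of the Arp2/3 actin nucleator (distance 0.04), Arl1, a Golgi GTPase (0.04), and Strn3, a striatin (0.05). Nearest to the mean of the other 8 members were Arpc5l, another Arp2/3 subunit (0.03), Eefsec, the selenocysteine elongation factor (0.03), and Smpd4, a sphingomyelinase (0.04). That mean joins members that moved apart, from Cct2 at a log2 fold change of 1.25 to Cct8 at -0.77. It need not be the pattern of any single member. Log2 fold changes of the 6 genes were 0.18 to 0.22, and none passed the test. Because the genes were chosen as nearest to these profiles, this is no separate result. Of the 15382 genes, 359 lay within a distance of 0.2 of Cct6b and 414 within 0.2 of that mean.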

How the data were processed

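Spermatocytes and spermatids were sedimented at unit gravity and made into stranded mRNA libraries, per the labels' protocols. The deposited values are a normalized signal: gene counts that the authors divided by DESeq size factors of the libraries, per the submitters' processing notes, where STAR 2.4.0, Picard, SAMtools, FastQC and mm10 are also named. For the counting program and its strand setting the sources used here give nothing. Each value was a whole multiple of its column's smallest value (within 0.001), so whole reads were recovered. In every library more genes had 2 reads than 1, and counting error was not used in the main test. The chi-square values between replicates, edgeR, DESeq2 and the simulation do rest on counting error of the recovered reads.

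Genes with a mean of at least 10 were tested with limma 3.58.1 (R 4.3.3) on log2(value + 1), eBayes with a trend of variance on mean, Benjamini-Hochberg at 0.05, fitted over all 28370 genes tested. Fold changes are on that scale, which understates low genes. Replicates were numbered in accession order and pair no samples. Alternatives were TMM, equal totals, quantile normalization, other pseudocounts and filters, no trend, edgeR 4.0.16 and DESeq2 1.42.0 on recovered reads with the authors' size factors, the sum of rows of a symbol, and leaving out each replicate. A shorter Cct6a transcript, and marker shares without spermatid replicate 1, were added after seeing the data. On simulated counts limma called 28.6% of 98 genes changed 2-fold and 74.2% of 97 changed 4-fold. Those 98 and 97 were set among 27889 in total, whereas in the data limma called 40.6% of genes tested higher and 36.5% lower. The share called when that many genes change was not tested.

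Members and lists were chosen with earlier results of these data known. Named were all members, of each list the 3 genes of highest mean and the called one of largest change, and the 3 of nearest profile. Some further genes, among them Hspd1, Hspe1, Vbp1, Acta2 and Tubg2, were named outside that rule. Pfdn6 and Wdr92 were not matched by symbol, and Actc1, Tubb1, Tubb2b, Tubb4a and Gnb3 were too low to test. Transcript lengths and starts came from GENCODE vM21 and promoters from RefSeq (GRCm38.p6). Summaries used Python 3.11.15, pandas 2.3.3, numpy 2.4.6, scipy 1.17.1 and matplotlib 3.10.9.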

Additional observations from a re-analysis of the deposited data

How the results depend on the processing

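The count of CCT genes higher in spermatids was 5, and 1 with equal totals, 1 with quantile normalization and 1 without the variance trend. It was 4 to 5 on leaving out 1 spermatid replicate. Of the 28370 genes tested, 11118 were higher without the trend and 10955 to 11729 on leaving out 1 spermatid replicate. With either spermatocyte replicate left out, 1 library remains in that group, and fewer CCT genes were called higher. The count of lower CCT genes was 2, and 8 with equal totals and 6 with quantile normalization. Higher genes on the cofactor lists, which include the chaperonin relatives, were 11, and 7 with equal totals and 7 with quantile normalization. These 2 scalings reversed the following log2 fold changes, given as equal totals and then quantile. The CCT genes were Tcp1 (-0.29 and -0.062), Cct3 (-0.59 and -0.64), Cct4 (-0.33 and -0.39), Cct5 (-0.27 and -0.39), Cct6b (-0.46 and -0.56) and Cct7 (-0.33 and -0.29). The cofactors were Pdcl2 (-0.058 and -0.17), Pfdn1 (-0.57 and -0.64) and Pfdn5 (-0.25 and -0.35). The genes of like pattern were Arl1 (-0.43 and -0.31), Arpc2 (-0.46 and -0.57), Arpc5l (-0.45 and -0.54), Eefsec (-0.47 and -0.45), Smpd4 (-0.45 and -0.55) and Strn3 (-0.43 and -0.22). On leaving out 1 replicate Pfdn1 ranged from -0.0019 to 0.16, and the Cct6b to Cct6a difference from 0.50 to 0.58. The scaling itself shifts all genes, and the cause of the other changes was not tested. No paired analysis was possible because replicate numbers were given in accession order and pair no samples.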
